A study of Mus musculus with 14 samples.

Results

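The genes described here encode the machinery that brings new secretory and membrane proteins into the endoplasmic reticulum (ER), removes their signal peptides and attaches N-linked glycans. The set holds 42 listed genes, of which 41 were measured among 18193 genes. A gene entered when a probe set carried its symbol alone, and the probe set with the highest mean log2 intensity over 14 arrays stood for it. The exception, Sec61g, the small gamma subunit of the Sec61 channel, was carried only by a probe set that also bears the symbols Gm11575 and Gm10177, and it was not used. The measured genes were 7 of the signal recognition particle (SRP) and its receptor, 4 of the Sec61 channel with Sec62 and Sec63, and 4 of the translocon-associated protein (TRAP) complex. There were also 5 of signal peptidase, 9 of oligosaccharyltransferase, 11 of lipid-linked oligosaccharide assembly, and Mogs, which encodes glucosidase I.

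RNA of splenic B cell subsets, double sorted from male C57Bl/Ka mice, was amplified and hybridised to Affymetrix arrays. Naive cells (3 arrays) came from unimmunized mice aged 4 to 8 weeks and were B220+, CD23+, IgM low, IgD+ and positive for the Ig lambda light chain. The other subsets bound the hapten NP and came from mice given 100 µg of NP-CGG in alum intraperitoneally, although the label of plasma replicate 1 states no dose. Plasma cells (4 arrays) were B220 low, syndecan-1+ and PNA-, taken at day 7 from mice aged 5 to 9 weeks. Germinal center cells (3 arrays) were PNA+ and CD38 low, taken at day 14 from mice aged 6 to 10 weeks. Memory cells (4 arrays) were CD38 high and negative for IgM, IgD and PNA, taken at 10 to 12 weeks from mice aged 14 to 18 weeks. Every sort left out cells bearing the myeloid and erythroid markers CD11b, Gr-1 and Ter119 or the T cell markers CD3, CD4, CD5 and CD8. Subset, age and time after immunization differ together and cannot be told apart. The labels do not say that replicates came from separate animals, so p-values reflect only how these samples vary, and that variation may be technical.

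Secretory proteins such as immunoglobulins begin with a signal peptide, which the SRP binds as it leaves the ribosome and carries to the SRP receptor on the ER. The chain then passes through the Sec61 channel with the help of TRAP, signal peptidase cuts off the signal peptide, and oligosaccharyltransferase moves a preformed glycan from a dolichol lipid onto asparagine. Plasma cells secrete antibody at a high rate and are known for an expanded rough ER, a state that depends on the transcription factor Xbp1.

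The values are intensities on a linear scale as deposited, and fold changes are differences of mean log2 intensity with their standard errors (SE). A gene was called at a limma p-value, adjusted by Benjamini-Hochberg over all 18193 genes, under 0.05. The background of an array was its brightest unspiked bacterial control, and 39 of the 41 genes lay above it on all 14 arrays. Alg12 lay above it on 9 arrays and Alg6 on 4. With so few arrays, their number limits how precise each value is. Probe sets differ in brightness for reasons of their own, so intensities are compared between subsets and not between genes.

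The subset labels were checked against marker genes. The summed intensity of 8 plasma cell markers was 32180 to 43690 on the plasma arrays and 2841 to 5755 on the others. That of 6 markers of mature B cells was 2009 to 3830 on the plasma arrays, 9587 to 13420 on the germinal center arrays and 20710 to 24490 on the naive and memory arrays. The sum of 6 germinal center markers was 11020 to 15040 on the germinal center arrays, 5632 to 6691 on the plasma arrays and 695.2 to 1804 on the others. On the plasma arrays most of it was the proliferation gene Mki67, at 5748, 5569, 6522 and 5467. Of the plasma cell markers, Jchain read 2027, 1419 and 1678 and Slpi 468, 219.9 and 375 on the germinal center arrays, against 8.69, 14.9 and 8.67 and 40.4, 32.6 and 23.8 in naive cells. Jchain read 37.6, 28.5, 86.3 and 489 on the memory arrays, highest on memory replicate 4, and Sdc1 read 6.37, 7.91, 7.39 and 49.9 there and 103, 190.0 and 147 on the naive arrays.

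Genes of cell types that the sorts leave out were also read. The sum of 8 T cell genes was 834.8 to 1112 on the plasma arrays against 94.21 to 117.5 elsewhere, and 4 of the 8 were called higher in plasma than in naive cells. These were Cd28, at 777, 711, 786 and 963 in plasma cells, and at far lower readings Thy1 (38.5, 24.9, 17.7 and 42.6), Cd3e (38.3, 32.4, 36.5 and 43.4) and Cd8a (up to 22.0). Cd3g and Cd8b1 lay below background on all 14 arrays. The sum of 12 myeloid genes was 557.8 to 834.7 on the memory arrays against 259.4 to 454.3 elsewhere, and most of it in memory cells was Mpeg1, at 379, 662, 651 and 409.6. Of these 12 genes, 5 were called higher and 1 lower in plasma than in naive cells. The 5 were Csf1r (145, 56.0, 30.8 and 107 on the plasma and 27.4, 33.6 and 27.4 on the naive arrays), Cd68 (22.7, 16.3, 16.7 and 28.4 on the plasma arrays), Lyz2 (16.1, 93.1, 15.2 and 22.7), Cebpb (47.9, 52.3, 55.7 and 44.1) and Csf3r (up to 15.7), and the other was Adgre1. Itgam, Cd14, S100a8 and S100a9 lay below background on all 14 arrays. The part of any of these in the results was not tested. In bulk samples, fewer cells of a type and less RNA per cell cannot be told apart.

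Plasma cells stood apart from the other 3 subsets. Of the 41 genes, 33 were higher in plasma than in naive cells, where 14.2% of all genes were called higher, and 1 was lower, where 16.1% of all genes were. The median log2 fold change of the 41 was 1.74, while that of all genes was 0.06. Among 6116 bright genes, those with a mean log2 intensity of at least 6, which include 35 of the 41, the median was -0.25, with 20.1% called higher and 34.1% lower. The same 33 genes, 80.5% of the set, were called higher in plasma cells than in each of the naive, germinal center and memory subsets, against 6.42% of all genes. For each of the 33 the lowest plasma array lay above the highest of the 10 other arrays, which held for 7.11% of all genes. The 3 comparisons share the plasma arrays, and each gene was read on its brightest probe set. For Sec62, among the 33, another probe set was called lower in plasma than in memory cells, as given below. With the arrays centred on their bright genes, 36 of the 41 were higher and 1 lower in plasma than in naive cells, and 29.0% of all genes were higher and 12.7% lower. The median of the 41 genes ranged from 1.58 to 1.99 over the 3 ways of scaling tried, which put the median of the bright genes between -0.41 and 0.00.

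**Figure D1:**
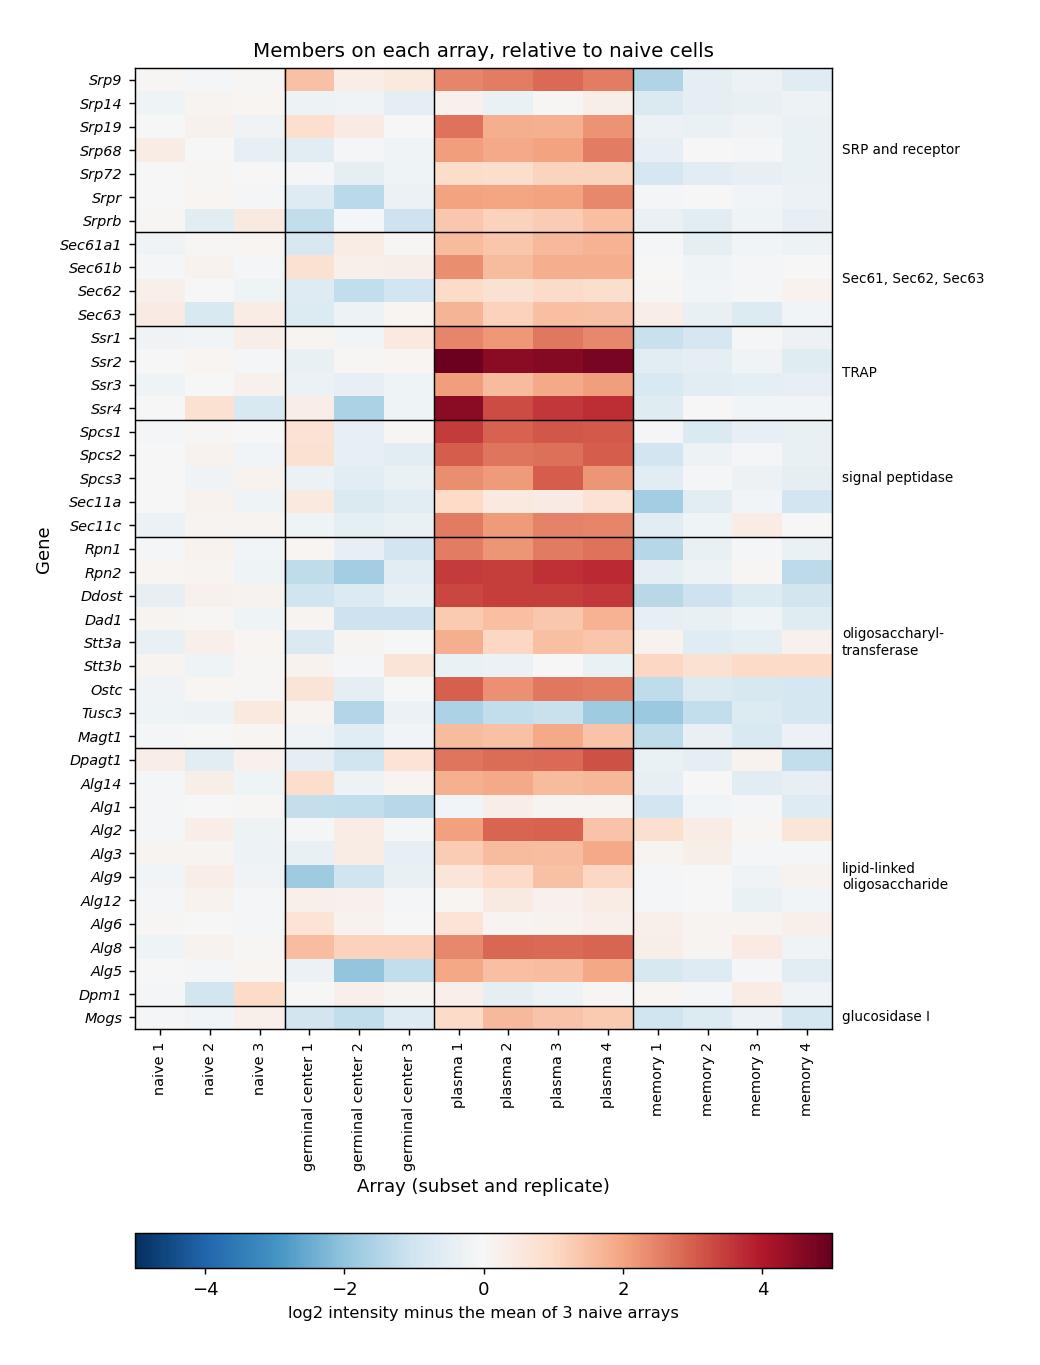
Each row is a gene and each column an array, and the colour is the log2 intensity minus the mean of the 3 naive arrays, with genes grouped by complex. The median gene lay 1.59 to 1.94 above the naive mean on the 4 plasma arrays, -0.40 to -0.19 on the germinal center arrays and -0.41 to -0.16 on the memory arrays.

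The SRP and its receptor, which deliver ribosomes to the ER, had 6 of 7 genes higher in plasma than in naive cells, with a median log2 fold change of 2.10. Srp9, a protein of the SRP domain that slows elongation, read 557, 505 and 560.0 on the naive arrays and 2947, 3144, 3890.0 and 3219.8 on the plasma arrays. It read 1486, 678 and 748 in germinal center cells and 193, 381, 441 and 359 in memory cells. The plasma arrays did not overlap with any other subset, and the log2 fold change against naive cells was 2.60 ± 0.28 (SE, adjusted p = 5.37e-06). Srp19, which helps the particle assemble on its RNA, rose from 407, 477 and 363 to 2689.9, 1452, 1407 and 1947, a log2 fold change of 2.13 ± 0.22 (adjusted p = 3.88e-06). Srp68, which with Srp72 forms a large heterodimer of the particle, went from 253, 198 and 148 to 825, 733, 777 and 1141 (2.13 ± 0.21, adjusted p = 1.65e-06). Neither gene's plasma arrays overlapped with the naive arrays. Srp72 rose by 1.0 ± 0.14, and the receptor subunits Srpr and Srprb by 2.10 ± 0.20 and 1.32 ± 0.26. Srp14, the partner of Srp9, was not called, at 0.06 ± 0.17 (adjusted p = 0.836).

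All 4 measured genes of the Sec61 channel and its helpers were higher in plasma than in naive cells, by a median of 1.52. Sec61b, a small subunit of the channel, read 1229.8, 1449 and 1213 on the naive arrays and 6563, 3887, 4535 and 4498 on the plasma arrays (1.88 ± 0.18, adjusted p = 1.16e-06). Sec61a1, which forms the pore, read 2041, 2404 and 2499 in naive and 6924, 5972, 7075 and 7684 in plasma cells (1.58 ± 0.22, adjusted p = 5.78e-05). Sec63, a membrane protein that recruits the chaperone BiP to the channel, went from 239, 106 and 233 to 591, 405, 509 and 497 (1.45 ± 0.30, adjusted p = 0.00163). For none of these genes did the plasma and naive arrays overlap. Sec62, which aids proteins that enter after their synthesis, rose by 0.89 ± 0.16 (adjusted p = 0.000476) on its brightest probe set, but its 3 other probe sets above background on at least 3 arrays were not called, at 0.40, 0.03 and 0.09. The rise of Sec62 therefore rests on 1 probe set.

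The TRAP complex, which sits beside the channel and helps certain signal peptides open it, had all 4 subunits higher, with a median of 3.08. Ssr2, its beta subunit, read 83.2, 89.6 and 79.6 on the naive arrays, 64.4, 87.5 and 90.2 on the germinal center arrays, 58.3, 59.2, 73.7 and 55.2 on the memory arrays and 2535, 1938, 2043 and 2279 on the plasma arrays. The plasma arrays lay far above the other 10. Its log2 fold change of 4.70 ± 0.15 against naive cells, 26-fold, was the largest of the 41 genes (adjusted p = 3.57e-11). Ssr4, the delta subunit, read 104, 176 and 60.7 in naive and 2382, 988, 1192 and 1343 in plasma cells (3.75 ± 0.43, adjusted p = 1.01e-05). Ssr1, the alpha subunit, went from 583, 597 and 795 to 3576, 2921, 4010.1 and 3491 (2.42 ± 0.24, adjusted p = 2.14e-06), and Ssr3, the gamma subunit, rose by 1.91 ± 0.15. Neither Ssr4 nor Ssr1 had a plasma array within the naive range, although the spread among the naive arrays was wider for Ssr4. The size of these rises depended on the probe set. The other probe sets of Ssr4 above background on at least 3 arrays rose by 1.33 and 0.66, while the next brightest of Ssr1 and Ssr3 rose by 3.93 and 2.82.

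Signal peptidase, which cleaves the signal peptide, had 4 of 5 genes higher in plasma than in naive cells, with a median of 2.42. Spcs1, an accessory subunit, read 380.0, 413 and 389 in naive and 4423, 3035, 3394 and 3264 in plasma cells (3.15 ± 0.23, adjusted p = 9.23e-08). Spcs2, another accessory subunit, read 759, 879 and 708 and 6397, 4923, 5281 and 6309.5 (2.87 ± 0.28, adjusted p = 1.54e-06). Spcs3, a subunit needed for cleavage, read 408, 356 and 460.1 and 2042, 1750.0, 3332 and 1870.1 (2.42 ± 0.20, adjusted p = 3.36e-07). The plasma arrays of these 3 genes lay above all naive arrays. The catalytic subunit comes in alternative forms, of which Sec11c was called higher and Sec11a was not, as described below for pairs of related subunits.

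Oligosaccharyltransferase, the enzyme that attaches the glycan, had 7 of 9 genes higher and 1 lower. Rpn2, a structural subunit also called ribophorin II, read 99.8, 103 and 81.7 on the naive arrays and 1066, 1035, 1202 and 1239.6 on the plasma arrays (3.59 ± 0.29, adjusted p = 3.04e-07). Ddost, the subunit also known as OST48, read 104, 160.1 and 156 and 1403, 1500.4, 1521 and 1612 (3.45 ± 0.20, adjusted p = 7.53e-09). Ostc, which joins the enzyme to the channel, read 159, 191 and 187 and 1426, 865, 1121 and 1047 (2.62 ± 0.24, adjusted p = 9.38e-07). None of these plasma values fell within the naive range. The other probe set of Ostc was not called, at 0.56 ± 0.26 (adjusted p = 0.146). Rpn1, ribophorin I, rose by 2.52 ± 0.29, Dad1, a small subunit named for its part in cell survival, by 1.48 ± 0.24, and Stt3a, a catalytic subunit, by 1.44 ± 0.26. Magt1, an oxidoreductase subunit, rose by 1.59 ± 0.21.

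Tusc3, the oxidoreductase subunit that can take the place of Magt1, was the only 1 of the 41 called lower in plasma than in naive cells. It read 401, 399 and 656 on the naive arrays, 518, 169 and 387 on the germinal center arrays, 157, 199.5, 220.4 and 137 on the plasma arrays and 132, 198, 297 and 255 on the memory arrays. Its log2 fold change in plasma against naive cells was -1.43 ± 0.36 (adjusted p = 0.00676). The plasma arrays lay below the naive arrays but overlapped with those of germinal center and memory cells, and neither of those differences was called.

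Assembly of the glycan on its lipid carrier had 7 of 11 genes higher in plasma than in naive cells, with a median of 1.58. Dpagt1, the enzyme of the first step, read 73.8, 39.4 and 67.6 in naive and 371, 407, 416 and 533 in plasma cells (2.88 ± 0.38, adjusted p = 3.41e-05). Alg8, which adds a glucose near the end of the chain, read 74.9, 97.1 and 90.1 and 454, 640.1, 619 and 654 (2.75 ± 0.18, adjusted p = 2.79e-08). Alg2, an early mannosyltransferase, read 25.2, 33.4 and 22.5 and 111, 201, 207 and 72.1 (2.34 ± 0.32, adjusted p = 4.66e-05). The groups did not overlap for any of these, although the plasma arrays of Alg2 spread widely, with plasma replicates 2 and 3 above the others. Alg14, which works in the second step, rose by 1.73 ± 0.23. Its other probe set above background was not called, at 0.05 ± 0.40 (adjusted p = 0.95). The luminal mannosyltransferases Alg3 and Alg9 rose by 1.58 ± 0.21 and 1.02 ± 0.27, and Alg5, which makes the glucose donor dolichyl-phosphate glucose, by 1.74 ± 0.30. Alg1, which adds the first mannose, was not called at 0.11 ± 0.19, nor was Dpm1, the catalytic subunit of dolichyl-phosphate mannose synthase, at -0.10 ± 0.33. The mannosyltransferase Alg12 (0.28 ± 0.14) and the glucosyltransferase Alg6 (0.31 ± 0.16) were not called and lay near background. Other probe sets of Alg12, Alg6 and Dpm1 were called higher where the brightest was not.

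Mogs, glucosidase I, removes the outermost glucose once the glycan is on the protein. It read 557, 543 and 708 on the naive arrays and 1172, 1863, 1617 and 1475 on the plasma arrays, without overlap, a log2 fold change of 1.34 ± 0.20 (adjusted p = 0.000128).

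**Figure D2:**
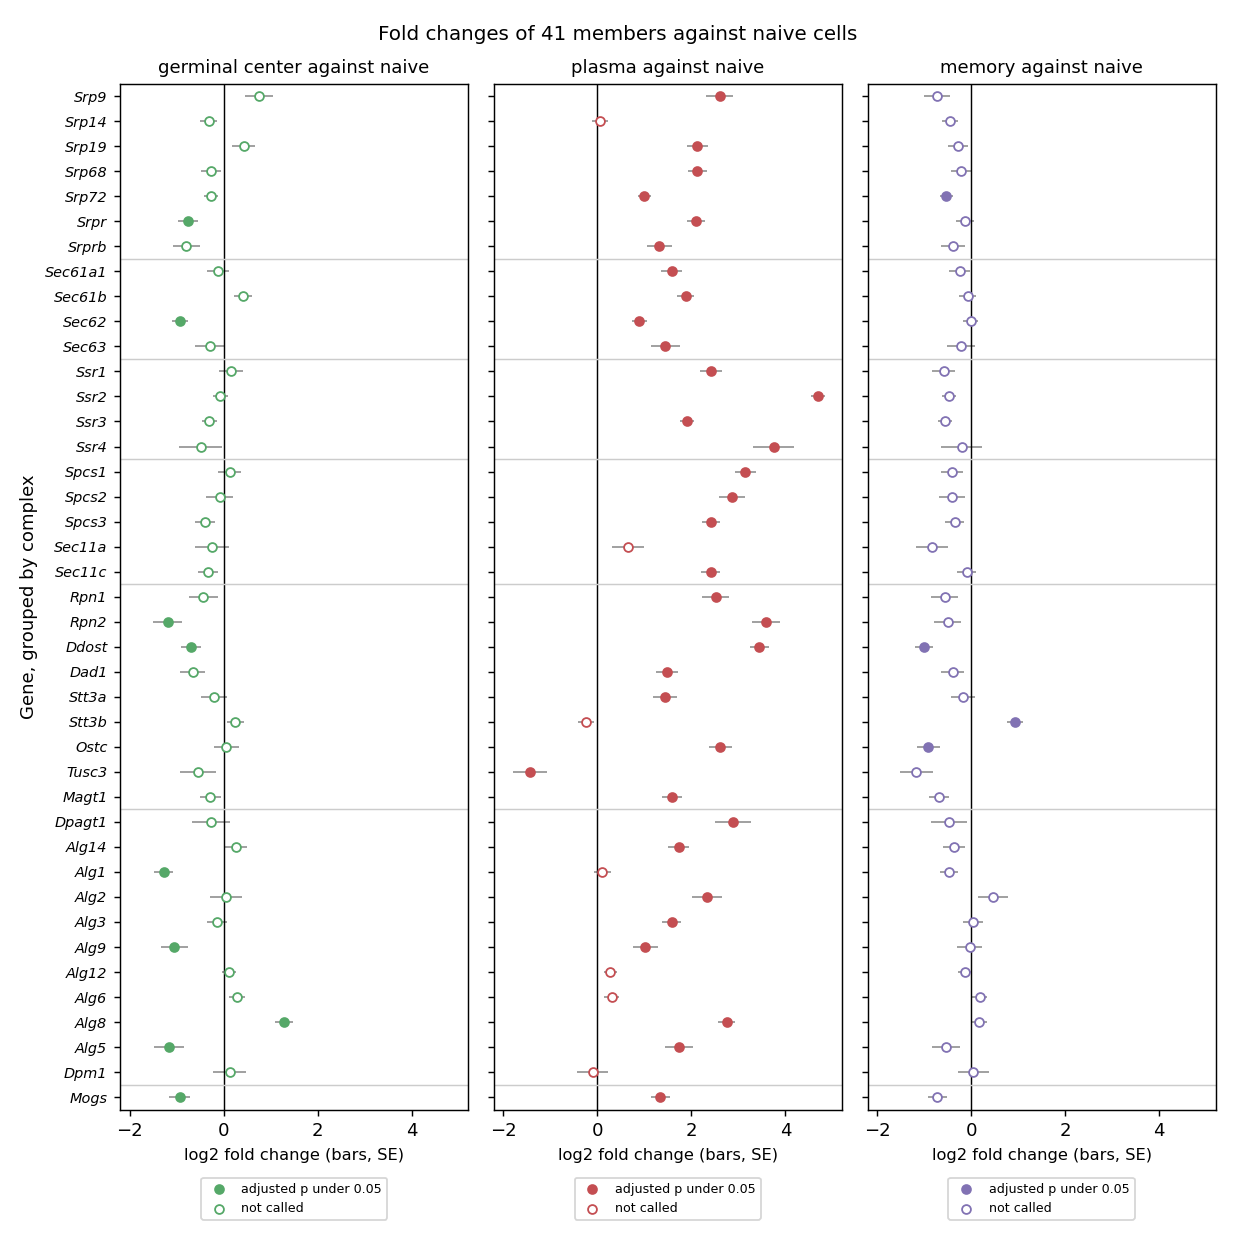
Points are log2 fold changes of 41 genes against naive cells in germinal center, plasma and memory cells, with bars for the SE and filled points for an adjusted p under 0.05. In plasma cells 33 filled points lie above 0 and 1 below, against 1 and 8 in germinal center cells and 1 and 3 in memory cells.

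Against the other antigen-experienced subsets the picture was similar. In plasma against germinal center cells 34 genes were higher and none of the 41 lower, with a median of 2.07 against -0.02 for all genes, where 11.2% of all genes were higher and 12.6% lower. The 34 were the 33 above and Alg1 (1.39 ± 0.19, adjusted p = 6.77e-05). In plasma against memory cells 37 genes were higher and 1 lower, with a median of 2.09 against 0.08 for all genes, where 17.2% of all genes were higher and 16% lower. The additions were Srp14 (0.51 ± 0.15, adjusted p = 0.0198), Sec11a (1.5 ± 0.31, adjusted p = 0.00157), Alg1 (0.57 ± 0.18, adjusted p = 0.0217) and Alg12 (0.42 ± 0.13, adjusted p = 0.0229). The plasma and memory arrays overlapped for Srp14 and Alg1. The call of Srp14 ended without plasma replicate 1 (0.46, adjusted p = 0.0587), plasma replicate 4 (0.43, 0.0656) or memory replicate 1 (0.42, 0.0648). That of Alg1 ended without plasma replicate 2 (0.50, 0.0681), memory replicate 1 (0.41, 0.0667) or memory replicate 4 (0.50, 0.0671). That of Alg12 ended without plasma replicate 2 (0.36, 0.0730), plasma replicate 4 (0.38, 0.0614) or memory replicate 3 (0.35, 0.0774). With the actin ratio described below as a covariate, Srp14 was at 0.44 (adjusted p = 0.0844), Alg1 at 0.56 (0.0582) and Alg12 at 0.35 (0.101), and with arrays centred on their medians Alg1 was at 0.47 (0.0765) and Alg12 at 0.32 (0.0678). Alg12 lay above background on 2 of 4 memory arrays, and with a floor of 16 it was at 0.09 (adjusted p = 0.151), and with its most variable probe set at 0.38 (0.0793).

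The shares by comparison are plotted together with those of all genes.

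**Figure D3:**
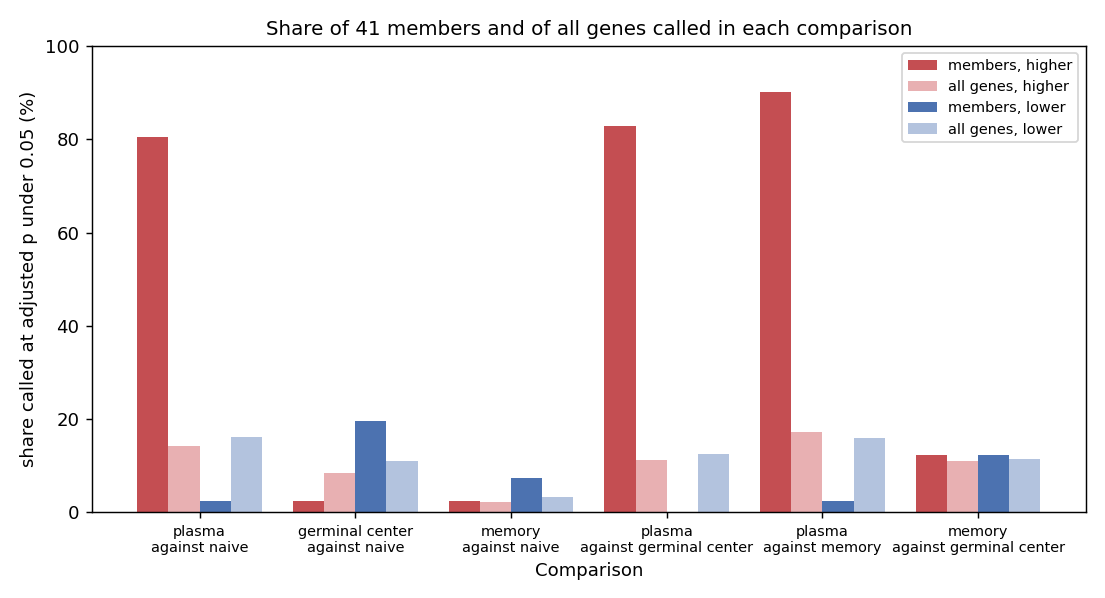
Bars give the share of the 41 genes and of all 18193 genes called higher or lower at an adjusted p under 0.05 in each of the 6 comparisons. In plasma against naive cells 80.5% of the 41 genes and 14.2% of all genes were higher, while in memory against germinal center cells 12.2% of the 41 genes and 11% of all genes were higher.

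Germinal center cells differed from naive cells in fewer of these genes. Alg8 was higher and 8 were lower (Srpr, Sec62, Rpn2, Ddost, Alg1, Alg9, Alg5 and Mogs), with a median of -0.27, where 8.37% of all genes were higher and 11.1% lower. The median of all genes was 0.06 and that of the bright genes -0.20. Among the bright genes 12.9% were higher and 23.0% lower, so the 19.5% of the 41 genes called lower is near that share. Alg8 read 256, 195 and 193 in germinal center cells against 74.9, 97.1 and 90.1 in naive cells, without overlap (1.29 ± 0.19, adjusted p = 0.000194), and 106, 94.6, 117 and 77.5 in memory cells. Alg1 read 27.2, 26.2 and 23.5 in germinal center and 58.2, 63.2 and 63.9 in naive cells (-1.27 ± 0.20, adjusted p = 0.000404). The 3 germinal center arrays of Alg1 lay below every naive array. Rpn2 read 39.0, 28.4 and 64.2 against 99.8, 103 and 81.7 in naive cells (-1.19 ± 0.31, adjusted p = 0.0151), again without overlap. The values of Ddost overlapped between these subsets. Sec62 was lower on its brightest probe set (-0.93 ± 0.17), while the 3 others above background were not called, at -0.61, 0.16 and -0.15. Some genes not called on their brightest probe set were called on another that lay above background on 14 arrays. Stt3b (0.99 ± 0.19, adjusted p = 0.00287) and Ssr1 (0.86 ± 0.24, 0.0322) were higher on it. Ostc (-1.40 ± 0.27, adjusted p = 0.00344) and Srp72 (-1.40 ± 0.36, 0.0189) were lower.

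A sign of RNA quality differed between germinal center and naive cells. The ratio of actin's 3′ probe set to its middle probe set was 11.3 ± 5.81 (SD, n = 3) on the germinal center arrays, at 10.1, 17.6 and 6.11, and 4.79 ± 0.464 (SD, n = 3) on the naive arrays. It was 6.27 ± 0.716 (SD, n = 4) on the plasma and 4.63 ± 0.501 (SD, n = 4) on the memory arrays. With this ratio as a covariate, Alg8 remained higher (1.18, adjusted p = 0.0257) and Alg1 lower (-1.29, adjusted p = 0.0241), and Srprb became called lower. The 7 others kept a negative sign but were no longer called. The share of all genes called in this fit was not counted, so a loss particular to these genes cannot be told from a general one. Srpr was at -0.16 (adjusted p = 0.859), Rpn2 at -0.48 (0.682), Ddost at -0.49 (0.519) and Alg5 at -0.67 (0.549). Sec62 was at -0.75 (adjusted p = 0.109), Alg9 at -0.72 (0.482) and Mogs at -0.62 (0.358), against -0.93, -1.05 and -0.93 without the covariate. Without germinal center replicate 2, the array with the highest ratio, Srpr was at -0.48 (adjusted p = 0.0721), Rpn2 at -0.91 (0.0717), Ddost at -0.69 (0.0692) and Alg5 at -0.77 (0.0682). Without germinal center replicate 1, Ddost was at -0.53 (adjusted p = 0.124) and Alg9 at -0.69 (0.0780).

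Single naive arrays also decided some of these calls. Without naive replicate 1, Srpr was at -0.77 (adjusted p = 0.0531) and Rpn2 at -1.15 (0.0525). Without naive replicate 2, Srpr was at -0.72 (adjusted p = 0.0613), Ddost at -0.58 (0.110) and Alg9 at -0.89 (0.0795). Without naive replicate 3, Ddost was at -0.60 (adjusted p = 0.114) and Alg5 at -1.13 (0.0548). With the arrays centred on their bright genes, 3 genes were higher and 7 lower, and 13.6% of all genes were higher and 9.00% lower. Of the 8 lower genes, all but Alg1 were higher in plasma than in naive cells, as were 33 of the 41 genes (80.5%). The 2 comparisons share the naive arrays.

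Memory cells differed from naive cells in 4 of these genes. Stt3b was higher, and Srp72, Ddost and Ostc were lower, with a median of -0.38 for the 41 genes and -0.03 for all genes, where 2.31% of all genes were higher and 3.26% lower. Of the 41 genes 2.44% were higher and 7.32% lower, near the 3.65% and 6.28% of the bright genes, whose median was -0.20. Stt3b, a catalytic subunit of oligosaccharyltransferase, read 7862, 6431, 7407 and 7512 in memory and 4245, 3259 and 4034 in naive cells, without overlap (0.93 ± 0.17, adjusted p = 0.00424). Its other probe set also rose, by 0.77 ± 0.18 (adjusted p = 0.0265). Ddost read 53.2, 67.0, 86.7 and 72.7 against 104, 160.1 and 156 in naive cells (-1.0 ± 0.20, adjusted p = 0.00783), and Ostc read 74.8, 111, 101 and 97.5 against 159, 191 and 187 (-0.91 ± 0.24, adjusted p = 0.0407). The memory arrays of both lay below the naive arrays. Srp72 fell by 0.53 on the log2 scale (adjusted p = 0.0441). The other probe set of Ostc was also called lower, at -1.33 ± 0.26 (adjusted p = 0.0106). That of Srp72 was not called, at 0.21 ± 0.34 (adjusted p = 0.853).

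The calls of Srp72 and Ostc in memory cells were fragile on their brightest probe sets. That of Srp72 ended without any 1 of naive replicates 1 to 3, plasma replicates 1 to 4, germinal center replicate 3 or memory replicates 1 to 3, at -0.57 to -0.43 with adjusted p from 0.0520 to 0.145. That of Ostc ended without any 1 of naive replicates 1 to 3, plasma replicates 3 and 4, germinal center replicate 3 or memory replicates 1 to 4, at -0.99 to -0.79 with adjusted p from 0.0504 to 0.141. Stt3b and Ddost kept their calls without any 1 array. The count of called genes was 2 without naive replicate 2 or 3, plasma replicate 3 or 4, or memory replicate 1 or 2, and 6 without germinal center replicate 2. Without memory replicate 4, on which Jchain was highest among the memory arrays, it was 4. With the arrays centred on their bright genes, 1 of the 41 was higher and 1 lower, and 3.31% of all genes were higher and 2.06% lower.

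Between memory and germinal center cells 5 genes were higher in memory (Srpr, Sec62, Stt3b, Alg1 and Alg9) and 5 lower (Srp9, Srp19, Ssr1, Ostc and Alg8), or 12.2% each, against 11% and 11.5% of all genes and 22.2% and 20.8% of the bright genes. Srp9 had the largest difference, at -1.47 ± 0.28 (adjusted p = 0.00154), followed by Alg8 at -1.12 ± 0.18 (adjusted p = 0.000337) and Alg9 at 1.03 ± 0.27 (adjusted p = 0.0141). With the actin ratio as a covariate 3 of the 41 genes were called, Srp9 (-1.69) and Ostc (-1.46) lower and Srprb higher. The share of all genes called in that fit was not counted. Of the calls lost, Srpr was at 0.00 and Stt3b at 0.35 (adjusted p = 0.536), while Alg1 was at 0.83 (0.148), Alg8 at -1.01 (0.0525), Ssr1 at -1.13 (0.0902), Sec62 at 0.73 (0.107), Alg9 at 0.68 (0.476) and Srp19 at -0.63 (0.423). Srp9 and Ostc were lower on their brightest probe sets only. Without the covariate, the other probe set of Srp9 was not called, at -0.67 ± 0.36 (adjusted p = 0.23). That of Ostc was not called either, at 0.07 ± 0.26 (adjusted p = 0.89). With the mean of a gene's probe sets Srp9 kept its call, while Ostc was at -0.45 (adjusted p = 0.173). The call of Srp19 ended without germinal center replicate 1 or 2 or any memory array, at -0.74 to -0.50. That of Srpr ended without germinal center replicate 1 (0.69) or 2 (0.35) or memory replicate 1 (0.62), 2 (0.59) or 3 (0.64). That of Ssr1, whose arrays overlapped, ended without germinal center replicate 1 (-0.76) or 3 (-0.58) or memory replicate 1 (-0.56) or 2 (-0.65), and that of Alg9 without germinal center replicate 1 (0.66). The next brightest probe set of Ssr1 was at -1.60 ± 0.23 (adjusted p = 0.000254). Its dimmer probe sets were at -0.75 ± 0.23 (adjusted p = 0.0371) and 0.24 ± 0.30 (0.651).

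Some of these enzymes have alternative subunits, and within-array log2 differences were compared for 3 pairs between the 4 plasma arrays and the 10 others. The 10 others pool naive, germinal center and memory arrays, which the test treats as alike although these subsets can differ. Sec11a, the first catalytic subunit of signal peptidase, read 1218, 1358 and 1040.4 on the naive arrays and 2423, 1685, 1598 and 1973 on the plasma arrays (0.66 ± 0.34, adjusted p = 0.168). Sec11c, its alternative, read 865, 1178 and 1183 and 6456, 4666, 5872 and 5766 (2.41 ± 0.20, adjusted p = 3e-07). The plasma arrays of both genes lay above the naive arrays. Sec11a was called higher with bright-gene centring (0.91, adjusted p = 0.0304) and in a fit of the plasma and naive arrays alone (0.66, adjusted p = 0.0166). The difference of Sec11c and Sec11a was 1.47 larger in plasma cells (exact two-sided permutation test, p = 0.000999, the smallest it can give, and 0.000999 adjusted over the 3 pairs). Against the 3 naive arrays alone it was 1.75 larger (exact p = 0.0286, the smallest possible). Sec11c has another probe set, which rose in plasma against naive cells by 0.93 ± 0.31 (adjusted p = 0.0460), and with it the difference was -0.29 (exact permutation p = 0.627). The unequal change of Sec11c and Sec11a thus held for 1 of 2 probe sets.

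The catalytic subunits of oligosaccharyltransferase are Stt3a, which works beside the channel, and Stt3b, which can glycosylate sites after synthesis. Stt3a read 1761, 2742 and 2449.6 on the naive arrays and 8063, 4694, 6459.6 and 5943 on the plasma arrays, without overlap (1.44 ± 0.26, adjusted p = 0.000696). Stt3b read 4245, 3259 and 4034 and 3032, 3154, 3893 and 3001, which overlapped (-0.23 ± 0.17, adjusted p = 0.334). It was the gene called lower in plasma than in memory cells (-1.16 ± 0.15, adjusted p = 3.09e-05). The difference of Stt3a and Stt3b was 2.25 larger in plasma cells than on the other arrays (exact permutation p = 0.000999, adjusted 0.000999) and 1.67 larger than on the naive arrays (exact p = 0.0286). Its mean was -0.75 on the naive, -1.20 on the germinal center and -1.85 on the memory arrays, which the first of these tests pools. The other probe set of Stt3b behaved differently, rising in plasma against naive cells by 2.28 ± 0.18 (adjusted p = 4.41e-07). With it the difference was -0.10 (exact permutation p = 0.791) for the brightest Stt3a probe set, and 0.93 (exact p = 0.0340) and 2.35 (exact p = 0.000999) for the other Stt3a probe sets. Which probe set follows the Stt3b transcript was not tested.

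For the oxidoreductase subunits the pair moved in opposite directions. Magt1 read 622, 663 and 708 on the naive arrays and 1981, 1834, 2485 and 1772 on the plasma arrays, without overlap, while Tusc3 was lower, with the values given above. The difference of Tusc3 and Magt1 fell by 2.75 in plasma cells (exact permutation p = 0.000999, adjusted 0.000999) and by 3.02 against naive cells (exact p = 0.0286). With the second probe set of Magt1 it fell by 4.46 (exact p = 0.000999). Of the 3 pairs, this was the only one whose direction and test held with every probe set tried. Tusc3 had a single probe set, however, so only that of Magt1 could be varied.

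**Figure D4:**
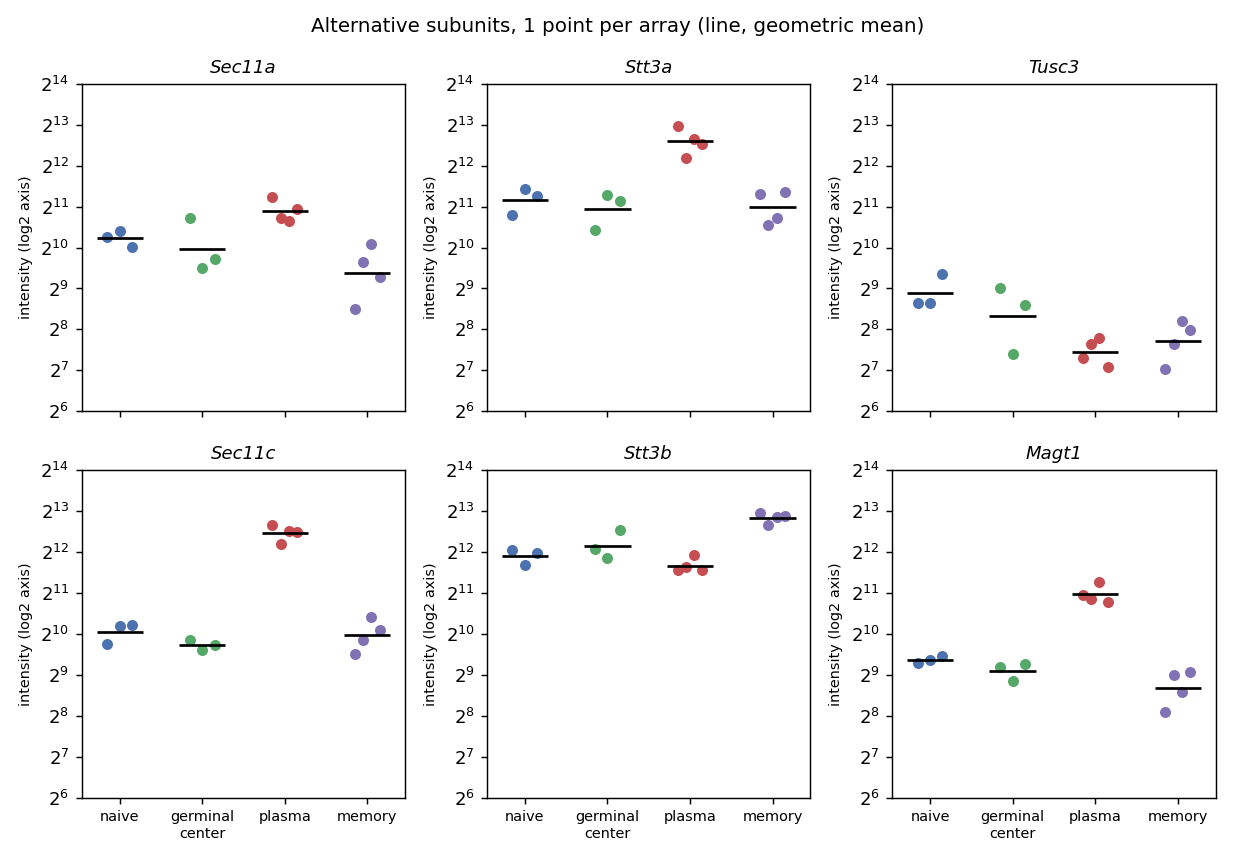
Each point is the intensity on 1 array, on a log2 axis, for the brightest probe set of each alternative subunit of signal peptidase (Sec11a, Sec11c) and oligosaccharyltransferase (Stt3a, Stt3b and Tusc3, Magt1), and lines are geometric means. Sec11c, Stt3a and Magt1 are higher on all 4 plasma arrays than on the other 10, Tusc3 is lower in plasma than in naive cells, and Stt3b is highest in memory cells.

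Probe sets were compared for the other genes too. Of the 41 genes, 13 had a single probe set and 28 several. Of 45 other probe sets above background on at least 3 arrays, 33 gave the same call in plasma against naive cells and 0 the opposite one. The call was missing from 8, which belong to Alg14, Ostc, Rpn1, Sec61a1, Sec63 and Sec62. A further 4 were called where the brightest was not, those of Alg12, Alg6, Dpm1 and Stt3b. Other comparisons were not counted. In plasma against memory cells another probe set of Sec62 was called lower (-1.78, adjusted p = 0.013), where the brightest was higher (0.9). Another of Stt3b was called higher (1.5, adjusted p = 9.33e-06), where the brightest was lower (-1.16). Probe sets of Sec11c (0.13), Alg14 (0.58) and Sec63 (0.16) were not called there, though others of Sec63 were higher.

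Genes of the same pathway outside the set were examined in 6 further lists, of which 35 of 54 genes were higher and 2 lower in plasma than in naive cells. The shares were 64.8% and 3.7%, against 14.2% and 16.1% of all genes. Among proteins around the channel 3 of 4 rose. These were Tram2 (4.82 ± 0.23), which is related to the translocating chain-associated protein Tram1 (1.12 ± 0.23), and Hspa5 (1.99 ± 0.31), the chaperone BiP. Srp54b, a signal-binding SRP gene, lay above background on no naive array and was at least 6.02-fold higher in plasma cells (adjusted p = 1.91e-08). All 3 further oligosaccharyltransferase genes rose, Ost4 by 2.18 ± 0.38, Krtcap2 by 1.94 ± 0.21 and Tmem258 by 0.98 ± 0.21.

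Of 21 genes that supply sugars and dolichol, 15 rose (71.4%) and 1 fell (4.76%), against 14.2% and 16.1% of all genes. Gmppa and Gmppb, subunits of the enzyme that makes GDP-mannose, rose by 3.17 ± 0.31 and 3.13 ± 0.20, and Alg10b, a glucosyltransferase, by 2.11 ± 0.22. Srd5a3, a polyprenol reductase of dolichol synthesis, was at -0.59 ± 0.14 (adjusted p = 0.00504). Of 11 genes that trim or read the glycan, 9 rose, led by Edem2 (4.92 ± 0.18, above background on 1 of 3 naive arrays), Edem1 (2.96 ± 0.26) and Ganab (2.64 ± 0.28), the last a subunit of glucosidase II.

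The routes that insert proteins without the Sec61 channel, the ER membrane complex and the GET pathway, had 4 of 14 genes higher and 1 lower. That is 28.6% and 7.14%, against 14.2% and 16.1% of all genes and 20.1% and 34.1% of the bright genes. Emc7 rose by 2.25 ± 0.23, Emc4 by 1.43 ± 0.25 and Get3, which carries tail-anchored proteins, by 0.81 ± 0.19, and Get4 was at -0.70 ± 0.16 (adjusted p = 0.00316). The median of these 14 genes was 0.31, against 1.74 for the 41 genes, and the difference between the lists was not tested. In germinal center against naive cells 3 of the 54 genes were higher and 8 lower, among them Hspa5 (-1.11 ± 0.33, adjusted p = 0.0289). Those shares, 5.56% and 14.8%, are near the 8.37% and 11.1% of all genes. Among the bright genes 12.9% were higher and 23% lower.

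Promoter windows of RefSeq (GRCm38.p6, 250 bases before to 50 after the start site) were searched because 33 of these genes rose together in plasma cells. Windows were found for 32 of the 42 genes and for 27025 genes in all, and Srp19, Srp68, Sec61a1, Ssr2, Spcs3, Sec11c, Ostc, Tusc3, Dpagt1 and Alg2 had none in the table. Both strands were read for the ER stress element (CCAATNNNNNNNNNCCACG), to which factors of the unfolded protein response are known to bind. Shown are the windows of genes with large rises, Ssr4 (chrX:73786773-73787072, plus strand), Rpn2 (chr2:157278848-157279147, plus, the upstream one of its 2 windows), Ddost (chr4:138304488-138304787, plus) and Spcs1 (chr14:31001617-31001916, minus), and of Alg12 (chr15:88819269-88819568, minus), the single gene with the full element. Each reads 5′ to 3′ along the gene, and capitals mark CCAAT and CCACG on either strand.
Ssr4: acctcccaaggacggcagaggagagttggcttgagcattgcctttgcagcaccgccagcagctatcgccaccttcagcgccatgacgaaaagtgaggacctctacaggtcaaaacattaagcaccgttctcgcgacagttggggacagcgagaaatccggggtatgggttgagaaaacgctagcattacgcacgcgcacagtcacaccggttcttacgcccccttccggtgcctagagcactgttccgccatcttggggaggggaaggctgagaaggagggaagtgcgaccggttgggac
Rpn2: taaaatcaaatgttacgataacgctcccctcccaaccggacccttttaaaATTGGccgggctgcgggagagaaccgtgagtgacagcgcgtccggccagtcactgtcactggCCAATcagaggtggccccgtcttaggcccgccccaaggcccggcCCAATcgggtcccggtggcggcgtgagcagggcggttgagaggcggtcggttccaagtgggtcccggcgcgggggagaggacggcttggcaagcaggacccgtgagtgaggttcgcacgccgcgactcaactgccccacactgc
Ddost: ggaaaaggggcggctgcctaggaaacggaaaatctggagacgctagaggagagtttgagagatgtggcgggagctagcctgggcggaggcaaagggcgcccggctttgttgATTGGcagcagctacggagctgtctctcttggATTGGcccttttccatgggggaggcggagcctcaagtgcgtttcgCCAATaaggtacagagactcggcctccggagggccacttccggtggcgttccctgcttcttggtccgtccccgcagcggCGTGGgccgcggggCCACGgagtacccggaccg
Spcs1: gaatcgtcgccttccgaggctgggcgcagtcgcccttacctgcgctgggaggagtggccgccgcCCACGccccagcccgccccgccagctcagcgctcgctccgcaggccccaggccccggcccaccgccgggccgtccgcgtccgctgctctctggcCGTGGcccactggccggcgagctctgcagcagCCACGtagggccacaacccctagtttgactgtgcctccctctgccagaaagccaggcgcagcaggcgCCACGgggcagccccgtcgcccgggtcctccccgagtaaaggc
Alg12: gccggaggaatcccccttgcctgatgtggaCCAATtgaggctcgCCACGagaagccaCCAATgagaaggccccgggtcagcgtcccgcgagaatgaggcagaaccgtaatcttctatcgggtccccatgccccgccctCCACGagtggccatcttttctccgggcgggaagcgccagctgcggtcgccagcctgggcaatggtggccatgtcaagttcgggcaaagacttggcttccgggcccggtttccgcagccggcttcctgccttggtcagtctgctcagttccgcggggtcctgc
The window of Ssr4 holds neither short motif, that of Rpn2 shown has 3 matches of CCAAT and none of CCACG, that of Ddost has both, and that of Spcs1 has 4 matches of CCACG. The other window of Rpn2 (chr2:157279176-157279475) holds none of the motifs.

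A gene was counted when any of its windows held a motif. The full ER stress element occurred in 1 of 32 genes (3.12%) and in 0.137% of all genes. In Alg12 it begins 220 bases before the start site, and Alg12 was not called higher in plasma than in naive cells on its brightest probe set, which lay near background. Of its other probe sets, also dim, the dimmest was called higher (0.62 ± 0.17, adjusted p = 0.0148) and the other was not (0.04 ± 0.13). The element's other form (ATTGGNCCACG) was in 0 of 32 genes and 0.0444% of all genes. The core TGACGTGG of the unfolded protein response element was in 0 of 32 and 0.714%, and the cyclic AMP response element TGACGTCA in 0 of 32 and 2.03%. The short parts were frequent everywhere, CCAAT in 18 of 32 genes (56.2%) and 41.1% of all genes, and CCACG in 19 of 32 (59.4%) and 35.5%. The 32 include genes not called higher in plasma than in naive cells. Of the 24 called higher, 14 held CCAAT and 13 CCACG. These matches overlap with the ER stress element where it occurs. They describe letters in these windows and say nothing of binding.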

How the data were processed

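The members and gene lists were chosen with earlier results of these data known. The deposited table gives 1 intensity per probe set and array, on a linear scale, and RMA is named, with no version, in the submitters' processing notes. The chip definition is not given in the sources used here. Of 45101 probe sets, 64 controls were left out, and 34945 with 1 gene symbol gave 18193 genes, each represented by its brightest probe set. Values were put on the log2 scale as they stood, without a pseudocount or added scaling.

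All 14 arrays entered 1 linear model in limma 3.58.1 (R 4.3.3), with 1 mean per subset, 10 residual degrees of freedom and moderated variances. Tests were two-sided, and each of the 6 contrasts had its own Benjamini-Hochberg adjustment. A second fit of all probe sets other than controls gave the values of further probe sets of a gene. The 3 subunit pairs were compared by exact permutation tests over arrays. Genes were named by rule: in each complex the 3 largest called folds of plasma against naive cells, calls against the majority, the 3 largest calls in germinal center and memory against naive cells, the pairs, and up to 3 called genes of each pathway list. Sec62 was described further, and the promoters shown were chosen, after their values were seen. The fit was tested on simulated data. Alternatives changed the normalization, the filter, the floor, the choice of probe set, the variance model, covariates, the replicate block, the threshold and the arrays. Python 3.11.15 with pandas 2.3.3 and matplotlib 3.10.9 served for promoters and figures.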

Additional observations from a re-analysis of the deposited data

Results flagged for a closer look

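Among 82 groups of 4 arrays tested for 1 array far from the rest, 2 stood out, and chance alone flags about 1 in 20. On plasma array 4 Srpr read 2680, while the other plasma arrays read 1950 to 2010, a gap of 0.899 of the group's range. On plasma array 1 Alg8 read 454, while the others read 619 to 654, a gap of 0.848 of the range. Every plasma array of both genes lay above every array of the other subsets.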

How the results depend on the processing

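Counts for plasma cells moved little. Leaving out 1 array gave 34 to 34 called genes in plasma against naive, 34 to 36 against germinal center and 36 to 38 against memory cells, and 6 to 10 for germinal center against naive, 2 to 6 for memory against naive and 7 to 12 for memory against germinal center cells. The germinal center count against naive cells, 9, became 3 with the actin ratio as covariate, 5 with only the subsets compared, 4 at an adjusted p under 0.01 and 5 with a fold of at least 2. The memory count against naive cells, 4, became 2 with bright-gene centring, a floor of 16, a variance trend or a threshold of 0.01, and 0 with a fold of at least 2, where limma called 4 without it. The count of memory against germinal center cells, 10, became 3 with the actin covariate, 6 at 0.01 and 3 with the fold. The share of all genes called with the actin covariate was not counted. Without 1 array the pairs ranged from 1.36 to 1.57 (Sec11c and Sec11a), 2.09 to 2.37 (Stt3a and Stt3b) and -2.85 to -2.68 (Tusc3 and Magt1).

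Signs turned for a few values, and the probe set was the choice in most. Stt3b in plasma against naive cells was 0.02 with bright-gene centring, 1.02 with the mean of its probe sets and 2.28 with the most variable one, and against memory cells it was 0.17 and 1.5 with the mean and the most variable probe set. With the most variable probe set, Stt3b in memory against germinal center cells was -0.21, Sec62 was 0.16 in germinal center against naive cells, -0.13 in plasma against germinal center and -1.78 in plasma against memory cells, and Srp72 was 0.21 in memory against naive cells. Srpr in memory against germinal center cells was 0.00 with the actin covariate. The pairs turned to -0.10 with the second probe set of Stt3b and -0.29 with that of Sec11c, alternatives chosen after seeing the data. Of 3537 refitted folds of 131 named results, 3404 kept direction and side of the threshold, 120 lost their call, 2 gained one and 11 turned. All of these results but Sec11a and Stt3b in plasma against naive cells were called in the main fit. Other genes that became called under an alternative are therefore not counted among the gains. The replicate block, fitted though same-numbered arrays correlated at only -0.32 to 0.25 and others at -0.35 to 0.35, ended the calls of Ostc in memory against naive (-0.90, adjusted p = 0.0882) and Srpr in memory against germinal center cells (0.61, 0.0804), and no other of the 131. The causes were not tested. The limits are 3 or 4 arrays a subset, animals not named, and age and time that differ with subset.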
